A study of Mus musculus with 12 samples.

Results

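The proximal tubule takes back filtered protein and digests peptides at its luminal surface, and 10 genes of this surface were followed in mouse kidneys that carry mutations in Hox9, Hox10 and Hox11 genes. The genes were taken by symbol as Lrp2, Cubn, Amn, Dab2, Vil1, Dpep1, Anpep, Mme, Ggt1 and Enpep, and 10 of the 36186 genes of the deposited count table matched. RNA of whole kidneys of E18.5 embryos was sequenced in 12 libraries, 3 for each of 4 genotypes. The question was how the levels of these genes compare between the genotypes, against the spread between libraries of the same genotype.

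On proximal tubule cells, megalin (Lrp2) and cubilin (Cubn) are large endocytic receptors that bind filtered proteins and vitamin carriers. Cubilin reaches the surface together with amnionless (Amn), and Dab2 links the tail of megalin to clathrin. The receptors sit between and at the base of microvilli whose actin core is bundled by villin (Vil1), and the microvillar membrane carries peptidases that cut peptides in the filtrate (Dpep1, Anpep, Mme, Ggt1 and Enpep). Several of these genes are also known in other cells, such as Dab2 in macrophages, Anpep in myeloid and stromal cells and Mme in podocytes.

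The 4 genotypes were wild type (replicates 30, 37 and 55), Hoxa9,10,11-/- with HoxC9,10,11+/- (20, 31 and 33), Hoxa9,10,11+/- with HoxC9,10,11-/- (38, 110 and the library labelled AhCk_115) and Hoxa9,10,11-/- with HoxC9,10,11-/- (24, 27 and 29), all on a mixed background. They are written here as wild type, Hoxa-/- Hoxc+/-, Hoxa+/- Hoxc-/- and Hoxa-/- Hoxc-/-. According to the study, sequenced kidneys of the last genotype kept a wild type Hoxa11 allele, and the labels do not tell which library carried which allele. The mutant alleles are small frameshift changes, so transcripts of the targeted genes can remain. Hoxa10 had 125, 152 and 165 CPM in wild type and 100, 104 and 112 CPM in Hoxa-/- Hoxc-/-. Of the 6 targeted genes, 2 passed as lower in that genotype by edgeR, beside 13.7% of all genes. These were Hoxa10 and Hoxc10, with log2 fold changes of -0.49 and -0.78 and edgeR adjusted p-values of 0.0270 and 0.0127. All 6 had counts in every library, so the presence of a transcript checks no label. The 3 Hoxa+/- Hoxc-/- libraries came from 1 sequencing run and the other 9 from another, so for that genotype the run and the genotype cannot be told apart. Transcripts of 4 Y-linked genes had over 100 counts in all 3 wild type libraries, in replicate 20 of Hoxa-/- Hoxc+/-, in replicates 38 and AhCk_115 of Hoxa+/- Hoxc-/- and in replicate 24 of Hoxa-/- Hoxc-/-, so sex was not balanced between the genotypes. Nothing in the labels says whether a library holds the kidneys of 1 embryo or of several, and p-values measure the spread between these libraries.

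Library totals ranged from 28616878 to 47067926 counts. Levels are given as CPM, the standard unit of counts scaled by library total, with the 12 libraries scaled together by the TMM method. The lowest count of any of the 10 genes in any library was 404, for which counting error is 4.98% of the value. In RNA of whole kidneys, fewer proximal tubule cells and less RNA of a gene per cell cannot be told apart.

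Before any comparison, 3 libraries were singled out, each above or below both others of its genotype for all 10 genes. In wild type 30 each of the 10 genes was higher than in wild type 37 and 55, by 1.46-fold (Dab2) to 3.72-fold (Dpep1) over the mean of the other 2. In Hoxa-/- Hoxc+/- 20 each of the 10 was lower than in its fellow libraries 31 and 33, whose mean was 1.89-fold (Dab2) to 6.33-fold (Cubn) above it. Together the 10 genes made up 0.387% of all counts in wild type 30, against 0.219% and 0.188% in wild type 37 and 55. They made up 0.0866% in Hoxa-/- Hoxc+/- 20, against 0.369% and 0.414% in 31 and 33. Wild type 30 therefore lay inside the range of the mutants, and replicate 20 lay below all other libraries for 9 of the 10 genes, the exception being Dpep1 with 15.6 CPM beside 15.1 CPM in wild type 55, a gap within counting error. In replicate 38 of Hoxa+/- Hoxc-/- each of the 10 was higher than in 110 and AhCk_115, by 1.19-fold (Lrp2) to 2.37-fold (Dpep1) over their mean, and the 10 made up 0.378% of all counts, against 0.279% and 0.227%. In Hoxa-/- Hoxc-/- replicate 27 was likewise the highest and 29 the lowest for each of the 10. The median ratio of highest to lowest library there was 1.45-fold, against 1.74-fold in Hoxa+/- Hoxc-/-.

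**Figure D1:**
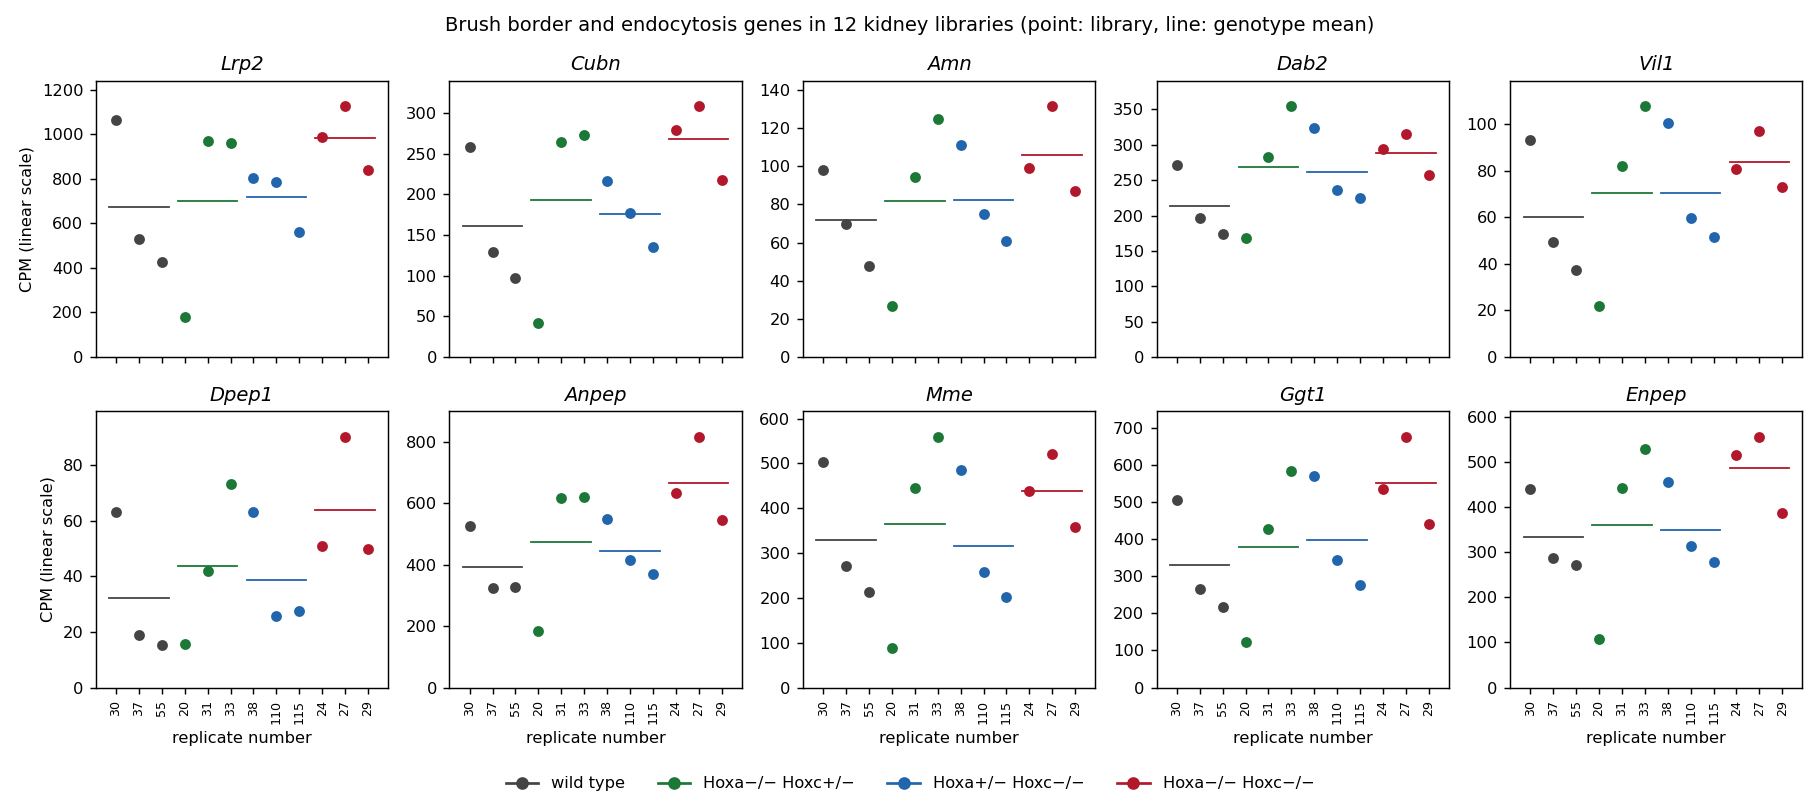
CPM of each of the 10 genes (linear axes that start at 0) in the 12 libraries, ordered by genotype, with a point for each library and a line at the mean of each genotype. Wild type 30 sits above wild type 37 and 55 in all 10 panels, and Hoxa-/- Hoxc+/- 20 sits below 31 and 33 in all 10.

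Other lists moved in the same libraries. Of 20 proximal transporter genes, all 20 were above both fellow libraries in wild type 30 and in replicate 38, and all 20 were below both in Hoxa-/- Hoxc+/- 20. Their summed level, led by the phosphate transporter gene Slc34a1, was 2721, 1296 and 973 CPM in wild type 30, 37 and 55, and 400, 2179 and 3462 CPM in replicates 20, 31 and 33. Of 12 cap mesenchyme genes, which mark the nephron progenitors, all 12 were below both fellow libraries in wild type 30 and 10 were above both in replicate 20. The progenitor regulator Six2 had 67.2, 83.9 and 105 CPM in wild type and 164, 76.7 and 69.7 CPM in Hoxa-/- Hoxc+/-. Over all 10751 genes with a mean of at least 10 CPM, 41.0% were above both fellow libraries in wild type 30 and 42.5% below both, while in replicate 20 the shares were 44.6% above both and 48.8% below both, and in replicate 38 37.9% were above both. Of 10 genes on a list of nuclear-retained RNAs and intron-retaining genes, 7 were below both fellow libraries in wild type 30. All 10 were above both in replicate 20, where their summed level, led by Srsf5, was 626 CPM against 449 and 502 CPM. So proximal tubule genes were high where progenitor genes were low, and the reverse, within a single genotype.

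Replicate 20 also had the fewest counts (28616878), and it had 4080 counts of Y-linked genes, against 6 and 7 in replicates 31 and 33. Across 10685 genes, the log2 ratio of replicate 20 to the mean of 31 and 33 fell with exon length (Spearman rho = -0.43 across genes, which are not independent). For wild type 30 against 37 and 55 the same value was 0.32. In the 6 libraries of Hoxa+/- Hoxc-/- and Hoxa-/- Hoxc-/-, taken in the same way, it ran from -0.17 to 0.20. The other libraries of wild type and Hoxa-/- Hoxc+/- are not compared here, since their ratios contain wild type 30 or replicate 20. The 3 genes with the longest exons, Lrp2, Cubn and Mme (11.5 to 16.7 kb), were 5.37-fold, 6.33-fold and 5.75-fold lower in replicate 20, and the other 7 were between 1.89-fold and 4.50-fold lower. Amn, the shortest with 1.84 kb, was 4.11-fold lower. The part of depth, sex, exon length, RNA quality or tissue makeup in these levels was not tested.

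**Figure D2:**
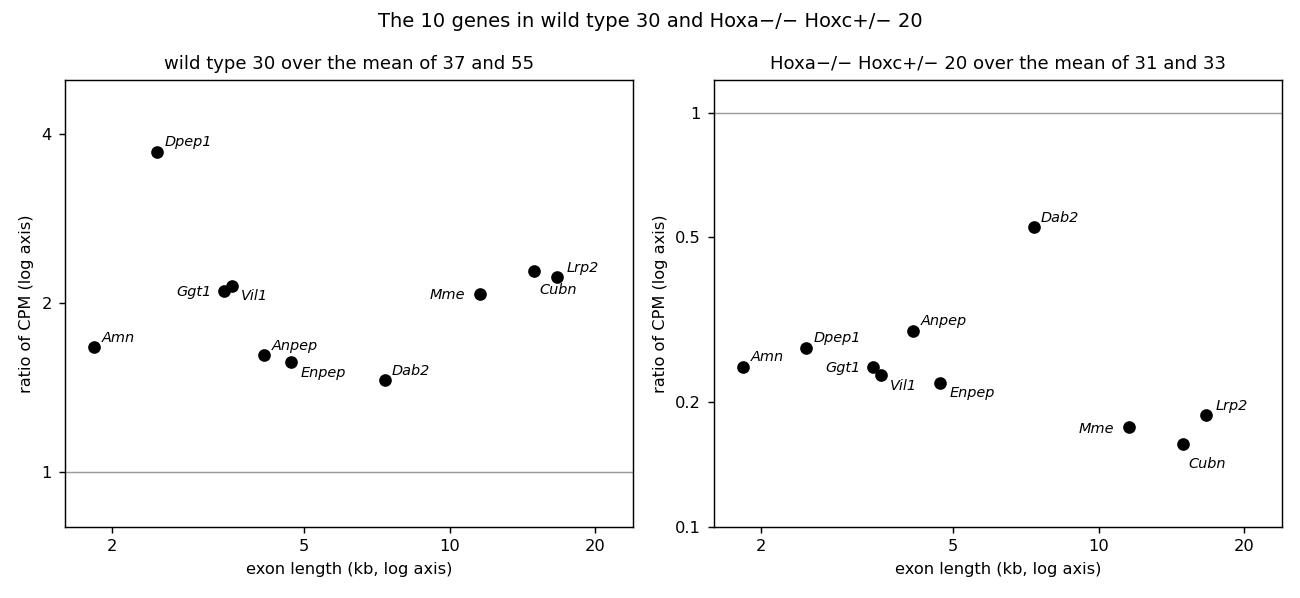
Ratio of CPM (log axis) against exon length in kb (log axis) for the 10 genes, with 1 point for each gene. Left, wild type 30 over the mean of 37 and 55, where all points lie above 1. Right, Hoxa-/- Hoxc+/- 20 over the mean of 31 and 33, where all points lie below 1 and Dab2 is nearest to it.

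Levels can be compared between genes only per length, and CPM was divided by the exon length of each gene in kb. In wild type, Ggt1, which cleaves glutathione and other gamma-glutamyl peptides, had 96.6 ± 45.5 CPM per kb (SD, n = 3) and Anpep, aminopeptidase N, had 95.1 ± 28.1. Neither was above the other in all wild type libraries. Enpep, the aminopeptidase that removes acidic residues from angiotensin peptides, followed with 70.8 ± 19.7 CPM per kb, above Lrp2 in each of the 12 libraries. Lrp2 (40.2 ± 20.5) and Amn (39.0 ± 13.7) were not in a fixed order, each being the higher in 6 of the 12 libraries. Dab2 (29.1 ± 6.87) and Mme (28.5 ± 13.3) came next, then Vil1 (16.9 ± 8.29), Dpep1 (13.0 ± 10.7) and Cubn (10.8 ± 5.72). Mme was above Vil1 in all 12 libraries. Dpep1 and Cubn had no fixed order, with Dpep1 the higher in 8 of 12 libraries. The order was much the same in the other genotypes, except that Dab2 ranked 3 in Hoxa-/- Hoxc+/- 20 and 6 or 7 in the other 11 libraries.

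The genes lie on 8 chromosomes of mouse build mm10. Lrp2 (Entrez 14725) spans 69424335 to 69586029 and Cubn (Entrez 65969) 13276338 to 13491876, both on chromosome 2. Mme (Entrez 17380, 63295211 to 63383713) and Enpep (Entrez 13809, 129269177 to 129332749) are on chromosome 3. The positions of the others are Vil1 on chromosome 1 (Entrez 22349, 74409384 to 74435560), Anpep on chromosome 7 (Entrez 16790, 79821803 to 79848210), Dpep1 on chromosome 8 (Entrez 13479, 123186235 to 123201812), Ggt1 on chromosome 10 (Entrez 14598, 75561076 to 75586193), Amn on chromosome 12 (Entrez 93835, 111271096 to 111276426) and Dab2 on chromosome 15 (Entrez 13132, 6299788 to 6440715). Exons of Cubn, Dab2 and Vil1 overlap an exon of a gene on the opposite strand over 2.46%, 2.87% and 1.38% of their length, and reads there could not be assigned by strand from the sources used here.

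Because the 10 genes moved together between libraries, the 250 bases before their annotated start sites were searched for 4 motifs on both strands. These were the HNF1 half-site GTTAAT, the HNF4A site CAAAGTCCA, the TATA box TATAAA and TTTATGG, a site of posterior Hox proteins. RefSeq gave 16 start sites for the 10 genes. GTTAAT was found before 1 of the 16, against 6.43% of all 32851 start sites, TATAAA before 2 of the 16 (Enpep and Ggt1) against 12.4%, and CAAAGTCCA and TTTATGG before none, against 0.384% and 2.43%. A match describes letters and not a bound site. The sequences below are from RefSeq GRCm38.p6, 5′ to 3′ on the strand of the gene, with matches in capitals. Dab2 had 2 start sites, and GTTAAT was found only before the downstream one, which lies within the gene. The first 2 sequences are this Dab2 start (chr15:6386498-6386747, plus strand) and the Enpep start with the TATA box, read here as its reverse complement (chr3:129332750-129332999, minus strand). The other 2 belong to the receptor pair Lrp2 (chr2:69586030-69586279, minus strand) and Cubn (chr2:13491877-13492126, minus strand), whose levels kept the most even ratio between libraries, and hold none of the 4 motifs.
Dab2: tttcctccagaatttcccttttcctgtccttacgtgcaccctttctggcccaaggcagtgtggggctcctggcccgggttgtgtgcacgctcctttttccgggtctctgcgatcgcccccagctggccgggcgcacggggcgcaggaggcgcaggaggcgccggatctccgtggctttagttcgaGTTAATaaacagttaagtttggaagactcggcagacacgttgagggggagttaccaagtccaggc
Enpep: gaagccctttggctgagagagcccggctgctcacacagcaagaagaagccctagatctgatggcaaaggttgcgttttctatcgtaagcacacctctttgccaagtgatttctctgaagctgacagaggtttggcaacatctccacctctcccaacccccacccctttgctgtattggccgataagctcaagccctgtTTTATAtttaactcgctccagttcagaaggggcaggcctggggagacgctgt
Lrp2: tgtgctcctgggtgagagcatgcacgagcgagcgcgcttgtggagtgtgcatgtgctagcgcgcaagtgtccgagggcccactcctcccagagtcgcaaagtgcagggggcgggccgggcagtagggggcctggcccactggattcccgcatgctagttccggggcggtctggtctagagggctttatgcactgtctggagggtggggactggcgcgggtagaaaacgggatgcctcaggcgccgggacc
Cubn: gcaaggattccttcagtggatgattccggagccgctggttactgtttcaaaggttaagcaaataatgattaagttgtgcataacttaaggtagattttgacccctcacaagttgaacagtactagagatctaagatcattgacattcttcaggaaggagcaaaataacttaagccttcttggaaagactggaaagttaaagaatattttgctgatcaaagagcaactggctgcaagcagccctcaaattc

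Hoxa-/- Hoxc-/- was compared with wild type first, since both came from the same sequencing run. All 10 genes had a higher mean in the mutants, and none of the 10 passed the test. Lrp2 had 1060, 529 and 425 CPM in wild type 30, 37 and 55 and 987, 1130 and 838 CPM in mutants 24, 27 and 29. Each mutant was above wild type 37 and 55, and wild type 30 lay within the mutant range, so the groups overlapped. For Lrp2 edgeR gave a log2 fold change of 0.55 ± 0.31 (SE) and an adjusted p of 0.261. Cubn had 258, 130 and 96.6 CPM in wild type and 280, 309 and 218 CPM in the mutants, which edgeR put at 0.73 ± 0.33 (SE) on the log2 scale with an adjusted p of 0.170. As for Lrp2, the overlap came from wild type 30 alone. Its partner Amn had 98.1, 69.7 and 47.6 CPM in wild type and 98.9, 131 and 86.9 CPM in the mutants. The adaptor Dab2 had 271, 197 and 174 CPM in wild type and 293, 315 and 257 CPM in the mutants, with wild type 30 above mutant 29. The log2 fold changes of Amn and Dab2 were 0.56 ± 0.26 (SE) and 0.43 ± 0.16, with adjusted p-values of 0.175 and 0.117 by edgeR.

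Vil1, the microvillar actin bundler, had 93.3, 49.5 and 37.4 CPM in wild type and 80.5, 97.0 and 72.9 CPM in the mutants. Here wild type 30 was above 2 of the 3 mutants, and edgeR gave Vil1 a log2 fold change of 0.47 ± 0.30 (SE) with an adjusted p of 0.311.

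Among the peptidases, Anpep came closest to the threshold. It had 528, 326 and 327 CPM in wild type and 634, 818 and 547 CPM in the mutants. It was the only 1 of the 10 genes whose groups did not overlap, while 17.3% of all genes tested were higher in every mutant than in every wild type library. Anpep had a log2 fold change of 0.76 ± 0.22 (SE) and, by edgeR, an adjusted p of 0.0590. Dpep1, which cleaves dipeptides and cystinyl-bis-glycine, had the largest ratio and the widest spread, with 63.1, 18.8 and 15.1 CPM in wild type and 51.2, 90.4 and 49.8 CPM in the mutants. Its log2 fold change was 0.98 ± 0.52 (SE), the adjusted p by edgeR was 0.233, and wild type 30 was above mutants 24 and 29. Dpep1 is also in a list that the study chose on these samples, so its direction here is not independent of that choice. Ggt1 had 507, 265 and 217 CPM in wild type and 536, 677 and 442 CPM in the mutants, and Enpep had 440, 288 and 272 CPM against 516, 556 and 385 CPM. Mme, neprilysin, had 502, 271 and 212 CPM against 438, 520 and 359 CPM. In all 3 wild type 30 was above mutant 29, and for Mme it was also above mutant 24. The log2 fold changes of Ggt1, Enpep and Mme were 0.74 ± 0.31 (SE), 0.54 ± 0.21 and 0.42 ± 0.30, with adjusted p-values of 0.143, 0.118 and 0.365 by edgeR.

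Thus 0 of the 10 genes passed an adjusted p of 0.05 in edgeR's quasi-likelihood test, while 13.7% of all genes tested did (2171 of 15839). At an unadjusted p under 0.05 the count was 4 of 10 (Dab2, Anpep, Ggt1 and Enpep), beside 5131 of all 15839 genes. That count was 0 with all 12 libraries or the 9 of 1 run in the fit, and 1 without wild type 37, wild type 55, mutant 24 or mutant 27. It was 2 by limma, 5 without mutant 29, 6 with all genes of at least 1 count and 10 without wild type 30. DESeq2 called 3 of 10 (Dab2, Anpep and Enpep), beside 3380 of all genes, and limma on the deposited log2 values called 0, beside 1215. The median log2 fold change of the 10 genes was 0.55, and that of all genes tested was -0.0080. Wild type 30 decided the count. Without it 10 of 10 genes passed, with log2 fold changes from 0.64 (Dab2) to 1.91 (Dpep1) and a median of 0.99, while 21.1% of all genes tested passed (3386 of 16080). Without any other single library 0 of 10 passed. Wild type 30 was known to be high for proximal tubule genes before it was left out, so the counts without it describe the remaining 5 libraries and are not a separate test. The count of all genes past the threshold also depended on single libraries, being 535 without wild type 37, 633 without 55, 793 without mutant 24 and 1101 without mutant 27.

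**Figure D3:**
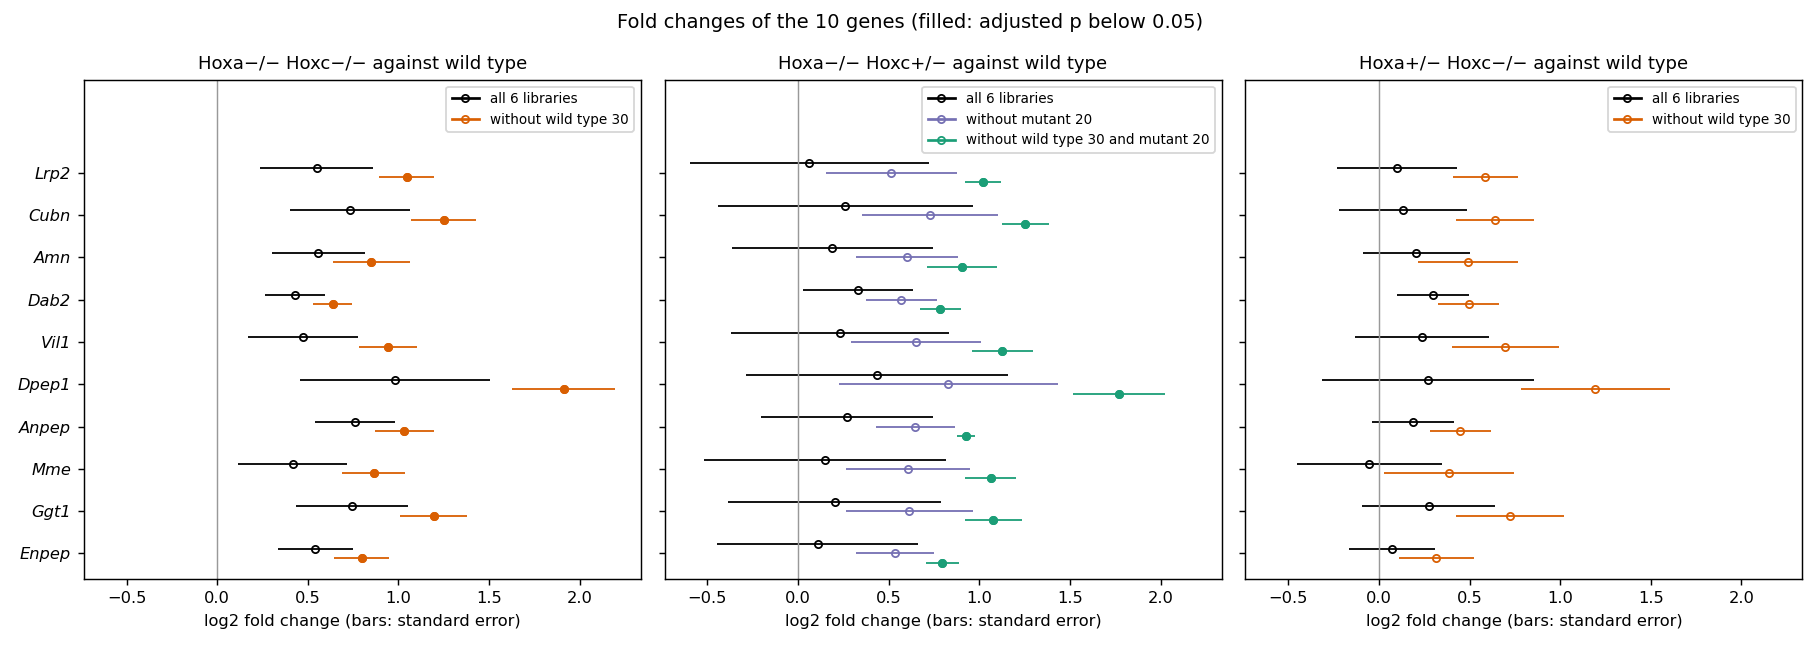
Log2 fold change of the 10 genes against wild type for the 3 mutant genotypes, with bars of 1 standard error. Colours mark the libraries left out, and filled points have an adjusted p below 0.05 by edgeR. In the left panel no point is filled with all 6 libraries and all 10 are filled without wild type 30, and in the middle panel all 10 are filled only where both wild type 30 and mutant 20 are left out.

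Other genes of the brush border and of endocytosis were also compared between Hoxa-/- Hoxc-/- and wild type. Of 14 other brush border structure genes tested, 2 rose and 1 fell, beside 13.7% of all genes that passed, with a median log2 fold change of 0.33. The scaffold gene Slc9a3r1, whose product ties membrane proteins to ezrin, had 186, 181 and 178 CPM in wild type and 244, 222 and 215 CPM in the mutants, a rise in log2 of 0.32 ± 0.08 (SE) for which edgeR gave an adjusted p of 0.0327. The motor gene Myo1d rose by 0.49, and Espn, a bundler of actin, fell by 0.51. Of 16 other brush border enzyme genes, 0 passed, with a median of 0.62. Their most abundant gene, the meprin subunit gene Mep1a, had 536, 295 and 222 CPM in wild type and 513, 701 and 426 CPM in the mutants, so that wild type 30 again lay among the mutants.

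Of 25 genes of the endocytosis machinery, 3 rose and 1 fell, beside the 13.7% of all genes that passed, with a median log2 fold change of 0.23. The lysosomal protease genes Ctsb and Ctsd rose in log2 by 0.41 ± 0.10 (SE) and 0.38 ± 0.09, with adjusted p-values of 0.0347 and 0.0378 by edgeR. Ctsb had 467, 440 and 411 CPM in wild type and 585, 642 and 524 CPM in the mutants, with no overlap and little spread in wild type. The clathrin adaptor subunit gene Ap2b1 rose by 0.27, and Tpcn2, a channel of endosomes and lysosomes, fell by 0.60. These genes are used by many cell types, and their calls say nothing of the list as a whole. The endosomal chloride transporter gene Clcn5, which is needed for uptake by megalin, had 79.0, 28.8 and 25.4 CPM in wild type and 55.4, 65.5 and 50.5 CPM in the mutants, so that wild type 30 was above all 3 mutants. Of 8 proximal regulators, 2 rose, the nuclear receptor gene Rxra by 0.54 and Maf by 0.73 on the log2 scale. Hnf4a, a regulator of proximal tubule maturation, had 290, 147 and 130 CPM against 300, 291 and 228 CPM and did not pass. Of 20 proximal transporter and 19 proximal metabolism genes tested, 0 passed, with medians of 0.49 and 0.67. Without wild type 30 the counts were 13 of 20 and 13 of 19, all higher. Leaving it out also gave 9 higher and 1 lower of 14 for brush border structure, 10 higher of 16 for brush border enzymes, 10 higher and 1 lower of 25 for the endocytosis machinery and 5 higher of 8 for regulators. In that fit 21.1% of all genes passed, and wild type 30 was known to be high for such genes before it was left out.

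Lists of other cell types were compared in the same way. Of 10 podocyte genes 7 rose, of 9 macrophage genes 6 rose and of 10 stroma genes 8 rose, while of 12 cap mesenchyme genes 7 fell, beside 13.7% of all genes that passed. Of 10 endothelium and 6 distal tubule genes 0 passed by edgeR, of 8 loop of Henle genes 1 rose and of 12 collecting duct genes 2 fell. The summed macrophage level, led by Csf1r, was 102, 95.6 and 95.8 CPM in wild type and 228, 217 and 165 CPM in the mutants. The stroma sum, led by Col3a1, was 3121, 3225 and 3022 CPM against 8377, 10317 and 9237 CPM. The part of these cells in the levels of Dab2, Anpep and Mme was not tested. All 10 genes on the list of nuclear-retained RNAs and intron-retaining genes, which includes Malat1, fell, with a median log2 fold change of -1.31. The part of this list was not tested either. Brush border genes are also expressed in intestine and yolk sac. The summed level of 8 intestine genes, led by Guca2a, ran from 2.64 to 6.80 CPM over the 12 libraries, and of the 3 tested 0 passed by edgeR. Of 7 yolk sac and liver genes tested, 2 rose, Alb and Ttr, with a median log2 fold change of 1.47, and all 7 were positive. The summed level of that list, led by Afp, was 79.9, 90.6 and 51.1 CPM in wild type and 145, 148 and 73.6 CPM in the mutants, and its source was not tested.

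**Figure D4:**
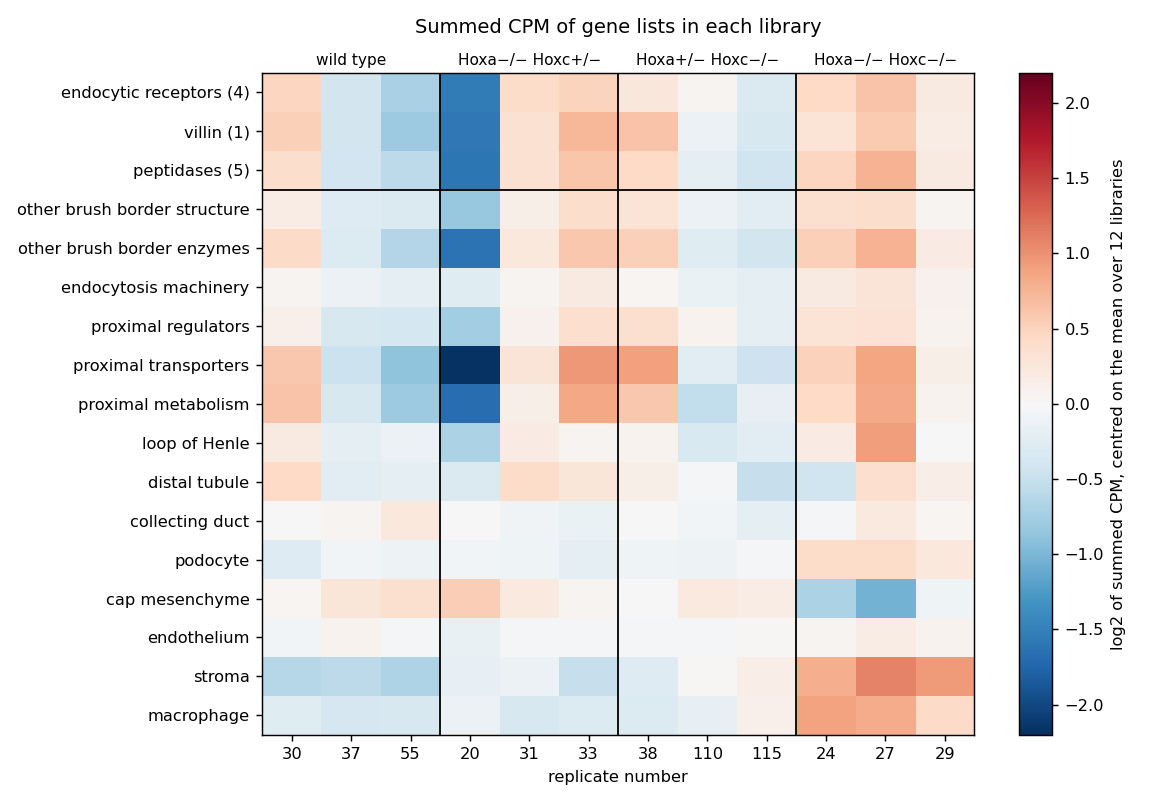
Summed CPM of gene lists in each of the 12 libraries, as log2 centred on the mean over the libraries (colour). The 3 bands above the line are the 10 genes by role, and these and the proximal transporter and metabolism bands are darkest blue in Hoxa-/- Hoxc+/- 20, while stroma and macrophage bands are red in the 3 Hoxa-/- Hoxc-/- libraries.

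In Hoxa-/- Hoxc+/- the 10 genes spread more widely than in any other genotype. Lrp2 had 179, 969 and 958 CPM in replicates 20, 31 and 33, and Cubn had 42.5, 264 and 273 CPM. Anpep had 184, 616 and 621 CPM and Mme had 87.5, 446 and 560 CPM. In each case replicates 31 and 33 were above wild type 37 and 55, and replicate 20 was below every wild type library. The highest of the 3 libraries was a median of 4.82-fold above the lowest over the 10 genes, against 1.40-fold over all genes with at least 10 CPM. The 3 mutant genotypes were set against the same wild type libraries, so these comparisons are not independent. Against wild type, log2 fold changes ran from 0.06 (Lrp2) to 0.44 (Dpep1) with standard errors from 0.30 to 0.72, and 0 of 10 genes passed by edgeR, all with an adjusted p of 1.00. Of all genes tested 0% passed (0 of 15789, with 360 at an unadjusted p under 0.05, 22 by DESeq2 and 1 by limma). No gene of the 10 had groups without overlap, against 3.58% of all genes higher in every mutant. With replicate 33 left out, 8 of the 10 log2 fold changes were negative. Without replicate 20 the median log2 fold change went from 0.22 to 0.61 and 0 of 10 passed, with 0.0501% of all genes past the threshold (8 of 15967). Of those 8 genes, 5 were Xist and the Y-linked Ddx3y, Kdm5d, Uty and Eif2s3y, because replicates 31 and 33 lack Y-linked transcripts almost entirely and all wild type libraries have them. Without replicate 20 and wild type 30 together, a choice made after these values were seen, 10 of 10 passed with a median of 1.04, while 17.6% of all genes did (2787 of 15878). In the same fit 19 of 20 proximal transporter genes rose, and 6 of 12 cap mesenchyme genes fell. Of the nuclear-retained RNAs and intron-retaining genes, 8 of 10 fell. In this fit, as without replicate 20 alone, sex and genotype cannot be told apart.

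In Hoxa+/- Hoxc-/- replicate 38 was above 110 and AhCk_115 for each of the 10 genes. Lrp2 had 804, 787 and 560 CPM in replicates 38, 110 and AhCk_115, Cubn 216, 177 and 135 CPM, Anpep 550, 416 and 369 CPM and Dpep1 63.2, 25.8 and 27.6 CPM. All of these lay between the lowest and the highest wild type library, except that Anpep in replicate 38 was above wild type 30 and Dpep1 in replicate 38 was level with it. The log2 fold changes against wild type ran from -0.05 (Mme) to 0.30 (Dab2), and 0 of 10 genes passed by edgeR, with adjusted p-values from 0.426 to 0.954, while 2.36% of all genes tested did (376 of 15902). At an unadjusted p under 0.05 the count of the 10 was 0, beside 3349 of all genes, and DESeq2 and limma called 0, beside 1309 and 158. Groups overlapped for all 10 genes, against 11.4% of all genes that were higher in every mutant. Of the lists on brush border, endocytosis and proximal tubule, 1 gene passed, the early endosome gene Rab5a, whose log2 level fell by 0.45 ± 0.08 (SE) with an edgeR adjusted p of 0.0344. Since this genotype was sequenced in its own run, neither the count of all genes nor this fall can be told apart from the run. Leaving out wild type 30 moved the median log2 fold change of the 10 from 0.20 to 0.54. In that fit 0 of 10 passed, beside 549 of all 16192 genes, and 6 of 10 reached an unadjusted p under 0.05 by edgeR, beside 4317. Leaving out replicate 38 moved the median to -0.08, with 8 of 10 negative. Both libraries were known to be the highest of their genotype for all 10 genes. These values therefore describe the remaining libraries and are not separate tests. The count of all genes was 60 without wild type 37, 70 without 55, 63 without mutant 110 and 99 without mutant AhCk_115.

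The mutant genotypes were also compared with each other, and these comparisons share the Hoxa-/- Hoxc-/- libraries. Against Hoxa-/- Hoxc+/-, 0 of the 10 genes passed by edgeR, and of all genes tested 0% passed (0 of 15764, with 1787 at an unadjusted p under 0.05, 554 by DESeq2 and 1 by limma). The median log2 fold change of the 10 was 0.48. For all 10 the groups overlapped, against 9.95% of all genes higher in every Hoxa-/- Hoxc-/- library. Without replicate 20 that median was 0.02, and log2 fold changes ran from -0.17 (Mme) to 0.17 (Dpep1), with standard errors from 0.12 to 0.32 and 0 of 10 past the threshold, while 4.3% of all genes passed (687 of 15986). Of the 10 genes 6 were still positive. Replicate 20 was known to be the lowest library of its genotype for all 10 genes, so leaving it out had to make these differences smaller.

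Against Hoxa+/- Hoxc-/-, again with the run as a second difference, 0 of the 10 genes passed by edgeR, while 19.1% of all genes tested did (3027 of 15889). Cubn was nearest, with 280, 309 and 218 CPM against 216, 177 and 135 CPM, which do not overlap, and by edgeR its log2 fold change was 0.59 ± 0.19 (SE) with an adjusted p of 0.0709. Lrp2 also had no overlap (0.43 ± 0.17, edgeR adjusted p = 0.107), and these 2 of 10 stand beside 19.9% of all genes that were higher in every Hoxa-/- Hoxc-/- library. DESeq2 called 3 of 10 (Lrp2, Cubn and Anpep), beside 3958 of all 15889 genes, and limma called 0, beside 2096. An unadjusted p under 0.05 by edgeR was reached by 3 of 10, beside 5534 of all genes. That count was 0 with all 12 libraries in the fit or without replicate 27, 1 without AhCk_115 and 10 without replicate 38. In the other settings it was from 2 to 4. Without replicate 38, 8 of 10 passed, all but Lrp2 and Dab2, while 21.3% of all genes did (3441 of 16141). Replicate 38 was known to be the highest library of its genotype for all 10 genes, so leaving it out had to make these differences larger. Without any other single library 0 of 10 passed. The count of all genes was 888 without replicate 110, 1722 without replicate AhCk_115 and 1177 without replicate 24. Other lists also moved in the fit of all 6 libraries, where 19.1% of all genes passed. There 7 of 10 stroma and 5 of 9 macrophage genes rose, 3 of 12 cap mesenchyme genes fell, and 0 of 20 proximal transporter genes passed. Of the 25 endocytosis machinery genes, Cltc, Rab5a, Rab11a, Ctsb, Ctsd and Ctsl rose and Tpcn2 fell. Among the brush border structure genes Pls1 rose and Espn fell. The proximal regulator Maf and the proximal metabolism gene Cyp4b1 also rose. All 10 nuclear-retained RNAs and intron-retaining genes fell, with a median log2 fold change of -1.27. The part of these lists in the levels of the 10 genes was not tested.

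The spread between libraries of the same genotype was a shared feature of the 10 genes. In wild type all 10 had a highest library at least 1.5-fold above the lowest, against 7.03% of 10751 genes with at least 10 CPM. For Hoxa-/- Hoxc+/-, Hoxa+/- Hoxc-/- and Hoxa-/- Hoxc-/- the counts were 10, 7 and 3 of 10, against 41.0%, 7.73% and 7.42%. Replicate 38 was the highest of its genotype for 10 of 10 genes, replicate 27 for 10 of 10 and replicate 33 for 9 of 10, beside 37.9%, 38.1% and 32.7% of all genes. Replicate 29 was the lowest of Hoxa-/- Hoxc-/- for 10 of 10, beside 35.0%. Over the 12 libraries, the highest level was 7.26-fold above the lowest for Cubn, 6.40-fold for Mme, 6.28-fold for Lrp2 and 5.97-fold for Dpep1. Dab2 had the narrowest range, 2.11-fold.

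The 2 receptors kept their proportion while their levels differed between libraries, and their partners did so less. Per kb of exon, Cubn was between 0.252 and 0.319 of Lrp2 in the 12 libraries, a range of 1.27-fold, although each gene ranged over more than 6-fold. Amn ranged from 2.87 to 5.08 times Cubn per kb, with the highest ratio in Hoxa-/- Hoxc+/- 20. Dab2 departed most from Lrp2, with a ratio per kb of 2.14 in replicate 20 and between 0.580 and 0.932 in the other 11 libraries. Dpep1 was between 0.221 and 0.585 of Lrp2 per kb. Each gene was correlated with the mean of the other 9, after each was standardised on the log2 scale over the 12 libraries, and Pearson r ran from 0.91 (Dpep1) to 0.99 (Ggt1). These values describe libraries that differ in genotype, depth and, for 3 of them, in run.

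The genes most like the 10 were sought among 10741 others with a mean of at least 10 CPM, by Pearson r over the 12 libraries with the mean standardised log2 CPM of the 10. The first was Slc3a1, which encodes a subunit of the cystine transporter, with r = 0.998 and Spearman rho = 1.00. Slc3a1 had 216, 75.9 and 51.0 CPM in wild type, 17.5, 190 and 288 CPM in Hoxa-/- Hoxc+/-, 259, 119 and 76.2 CPM in Hoxa+/- Hoxc-/- and 246, 346 and 165 CPM in Hoxa-/- Hoxc-/-. Its 12 levels were thus in the order of the mean of the 10 genes, library for library. Then came Ehhadh, an enzyme of peroxisomal fatty acid oxidation, Bhmt2, a methyltransferase, Slc6a20b, Xpnpep2, an aminopeptidase of the membrane, the vitamin C transporter gene Slc23a1, Entpd5, the efflux transporter gene Abcg2, Ace, the angiotensin converting enzyme gene, and Mogat2, with r from 0.991 to 0.995. Without the 2 libraries farthest from the median (wild type 55 and Hoxa-/- Hoxc+/- 20), r of these 10 lay between 0.979 and 0.994. Within the 9 libraries of 1 run it lay between 0.992 and 0.999, and for deviations from the genotype means between 0.992 and 0.999. These genes were picked for their high r, so no p is given.

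By list, r was above 0.9 for 14 of 16 proximal transporter genes in this range of levels, 7 of 9 other brush border enzyme genes, 9 of 14 other brush border structure genes, 9 of 16 proximal metabolism genes and 9 of 24 endocytosis machinery genes. Over all genes the share was 8.12% (872 of 10741). An r above 0.9 was also found for 4 of 7 proximal regulators, 1 of 7 loop of Henle genes and 1 of 3 distal tubule genes. None of 10 podocyte genes, 12 collecting duct genes or 11 cap mesenchyme genes had an r above 0.9. Of the 11 cap mesenchyme genes 10 had r below -0.5, as did 3321 of all 10741 genes. The median r was 0.97 for transporters and 0.76 for the endocytosis list, close to the 0.80 of podocyte genes and the 0.77 of loop of Henle genes.

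**Figure D5:**
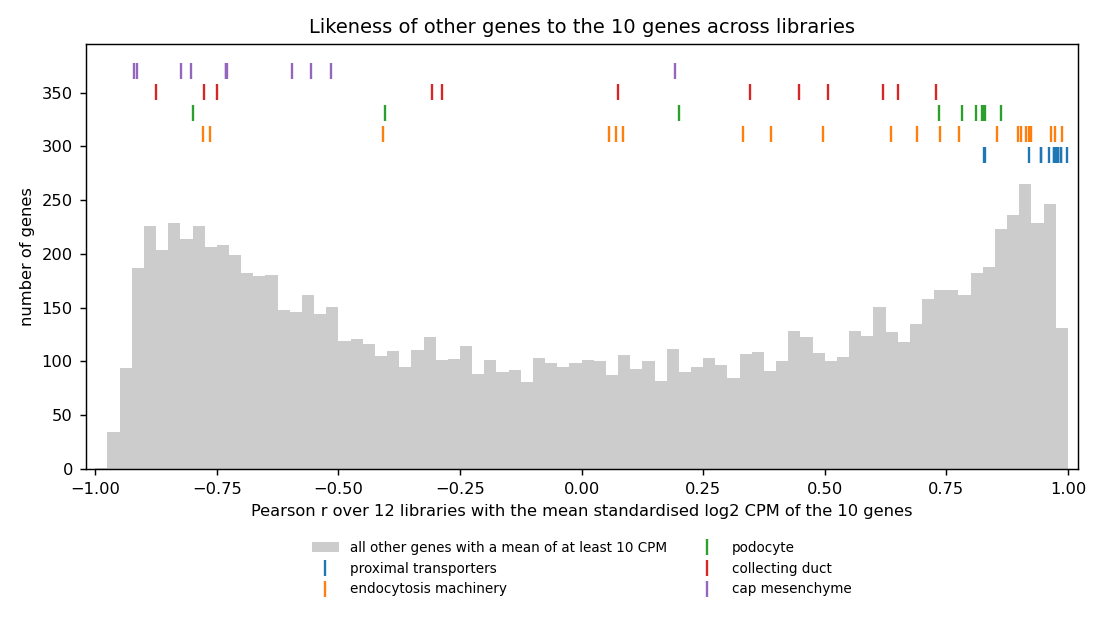
Number of genes (bars) by Pearson r over the 12 libraries with the mean standardised log2 CPM of the 10 genes, for 10741 genes with a mean of at least 10 CPM. Ticks above the bars are genes of 5 lists, with proximal transporters at the right end (median r = 0.97) and cap mesenchyme at the left (median r = -0.73).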

How the data were processed

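Paired-end reads were aligned by the authors to mm10 in Strand NGS, and multiply aligned reads were dropped. They deposited expected counts and normalized log2 values, whose median across the 12 libraries is within 0.001 of 0 for every gene. Expected counts were rounded, scaled by TMM, filtered by filterByExpr (minimum count 10, minimum total 15) and compared with the quasi-likelihood test of edgeR 4.0.16 in R 4.3.3 on the 6 libraries compared. P-values were adjusted by Benjamini-Hochberg over every gene tested, and the threshold was 0.05. Other settings tried were DESeq2 1.42.0, RLE factors, scaling by library size alone, no filter beyond 1 count, fits of all 12 libraries or the 9 of 1 run, limma 3.58.1 on the deposited log2 values, and leaving out each library. Where a symbol had several entries (92 symbols), the one with the most counts kept it. Exon lengths came from GENCODE M21, positions and start sites from RefSeq GRCm38.p6. The 10 genes and the lists of cell types and functions were chosen with earlier results of these data known.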

Additional observations from a re-analysis of the deposited data

How the results depend on the processing

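Under other settings, 557 log2 fold changes of the 10 genes kept their direction and side of the threshold, 49 changed sign and 34 newly passed, while 92 counts stayed within 1.5-fold and 36 did not. The cause was not tested. No paired analysis was possible because the labels do not give the litter of a library.

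For Hoxa-/- Hoxc-/- against wild type, DESeq2 called 3 of the 10 genes and 3380 genes in all, and the genes called were 1190 with all 12 libraries in the fit, 1215 by limma and 690 with the 9 libraries of 1 run. Leave-one-out counts ran from 0 to 10 of the 10 genes and from 535 to 3386 genes. For Hoxa-/- Hoxc+/- against wild type the genes called were 22 by DESeq2, 2 with all 12 libraries, 1 by limma and 0 to 8 leave-one-out. With wild type 30 and replicate 20 both left out, a choice made after the data were seen, 10 of the 10 genes and 2787 in all were called. For Hoxa+/- Hoxc-/- against wild type they were 1309 by DESeq2, 149 with all 12 libraries, 158 by limma and 60 to 549 leave-one-out. For Hoxa-/- Hoxc-/- against Hoxa-/- Hoxc+/- they were 554 by DESeq2, 540 with all 12 libraries, 181 with 9 libraries, 1 by limma, 1 with all genes of at least 1 count and 0 to 687 leave-one-out. Against Hoxa+/- Hoxc-/- they were 1944 with all 12 libraries and 888 to 3441 leave-one-out, and of the 10 genes 3 by DESeq2 and 0 to 8 leave-one-out.

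In Hoxa-/- Hoxc+/- against wild type, limma gave log2 fold changes of -0.17 for Lrp2, -0.025 for Cubn, -0.021 for Amn, -0.13 for Mme and -0.15 for Enpep. Leave-one-out ranges there were -0.24 to 0.56 for Lrp2, -0.072 to 0.77 for Cubn, -0.25 to 0.60 for Amn, -0.21 to 0.70 for Vil1, -0.16 to 1.37 for Dpep1, -0.30 to 0.61 for Mme, -0.26 to 0.65 for Ggt1 and -0.28 to 0.53 for Enpep. In Hoxa+/- Hoxc-/- against wild type they were -0.14 to 0.59 for Lrp2, -0.13 to 0.64 for Cubn, -0.078 to 0.49 for Amn, -0.11 to 0.70 for Vil1, -0.27 to 1.19 for Dpep1, -0.0017 to 0.45 for Anpep, -0.51 to 0.38 for Mme, -0.086 to 0.72 for Ggt1 and -0.18 to 0.32 for Enpep. In Hoxa-/- Hoxc-/- against Hoxa-/- Hoxc+/- they were -0.024 to 0.81 for Amn, -0.12 to 0.36 for Dab2, -0.16 to 0.69 for Vil1 and -0.17 to 0.73 for Mme.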
